A study of Mus musculus with 3 samples.

Results

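The miRNA profile of fibro/adipogenic progenitors (FAPs) from cardiotoxin-injured mouse muscle was set directly against that of FAPs from denervated muscle. The comparison used 1 library on each side, so it has no replicate check, and every interval in parentheses is a 95% interval for counting error only. Of 659 mature mouse miRNA names in the table, 368 had a mean of at least 10 CPM (counts scaled to a library total of 1000000) over these 2 libraries, and these 368 are described here. The cardiotoxin library came from muscle taken 5 days after the toxin was injected, and the denervated library from muscle taken 3 weeks after the sciatic nerve was operated on. The cells of both were wild type (WT), isolated straight from muscle and not cultured, and a library of FAPs from uninjured muscle (normal) is given beside them for reference. The sources used here do not give strain, age, sex, the number of animals behind a library or how the cells were sorted. The filter stopped between miR-323-3p, at a mean of 9.93 CPM, and miR-29c-5p, at a mean of 10.03 CPM.

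FAPs are stromal cells between the muscle fibres that support regeneration and can become fibroblasts or adipocytes. Cardiotoxin is a venom toxin that destroys fibres while largely sparing nerves and vessels, and after it leukocytes invade, progenitors multiply and the muscle rebuilds. Denervation leaves fibres in place but without input, so that they waste, with far less inflammation. A miRNA is a short RNA cut from a hairpin. It guides Argonaute to messenger RNAs mainly through bases 2 to 8, its seed, so miRNAs with the same seed can read the same target sites. Several miRNAs are also tied to a cell lineage, so a profile can be read for which cells gave the RNA.

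The following mature sequences are from RefSeq (GRCm38.p6), which held 328 of the 368 miRNAs by name, and are written 5′ to 3′ with the seed in capitals. The first set shows the most abundant miRNA, miR-21a-5p, and miRNAs at the ends of the comparison. miR-223-3p and miR-142a-3p are miRNAs of leukocytes, and miR-199a-5p, miR-199b-3p and miR-214-3p of mesenchymal cells. miR-127-3p is imprinted, and miR-1247-5p lies next to Dio3. miR-7a-5p and miR-34a-5p were high in cardiotoxin and are not counted here with either lineage.
miR-21a-5p: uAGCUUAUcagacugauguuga
miR-223-3p: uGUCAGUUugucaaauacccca
miR-142a-3p: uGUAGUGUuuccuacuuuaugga
miR-7a-5p: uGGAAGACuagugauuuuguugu
miR-34a-5p: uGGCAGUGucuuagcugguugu
miR-199a-5p: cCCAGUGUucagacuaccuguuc
miR-199b-3p: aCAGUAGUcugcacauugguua
miR-214-3p: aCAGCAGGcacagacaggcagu
miR-127-3p: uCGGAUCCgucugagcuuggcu
miR-1247-5p: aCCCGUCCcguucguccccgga

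The second set shows groups of miRNAs that share a seed. In 1 group the members stayed together, and in each of the others some were higher and some lower. Of these, miR-15a-5p, miR-301a-3p and miR-10b-5p lay within 2-fold. The groups are set apart by their capitals.
miR-125b-5p: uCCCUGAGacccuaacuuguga
miR-125a-5p: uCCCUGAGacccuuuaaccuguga
miR-351-5p: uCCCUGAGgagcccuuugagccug
miR-497a-5p: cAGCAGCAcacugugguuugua
miR-195a-5p: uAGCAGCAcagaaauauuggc
miR-15a-5p: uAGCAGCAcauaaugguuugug
miR-15b-5p: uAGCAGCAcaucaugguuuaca
miR-16-5p: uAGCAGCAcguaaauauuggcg
miR-322-5p: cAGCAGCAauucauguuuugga
miR-130a-3p: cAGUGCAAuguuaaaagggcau
miR-301a-3p: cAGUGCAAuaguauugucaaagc
miR-130b-3p: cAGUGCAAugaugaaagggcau
miR-17-5p: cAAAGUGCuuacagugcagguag
miR-20a-5p: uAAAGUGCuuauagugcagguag
miR-93-5p: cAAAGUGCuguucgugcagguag
miR-106b-5p: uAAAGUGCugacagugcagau
miR-10a-5p: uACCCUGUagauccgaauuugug
miR-10b-5p: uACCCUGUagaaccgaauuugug

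The cardiotoxin library held 3636249 counts and the denervated library 7193088, and the normal library held 4471365. A count of 0 was taken as 3 counts for folds, which is 0.825 CPM in cardiotoxin and 0.417 CPM in denervated, and folds resting on it are given as at least a value. At the 2-fold threshold on log2(CPM + 1), 115 of the 368 miRNAs were higher in cardiotoxin (31.2%) and 148 were lower (40.2%), so that 71.5% differed by at least 2-fold and 105 did not. The filter on the mean kept 77 miRNAs that were under 10 CPM in cardiotoxin and 37 that were under 10 CPM in denervated, and for these the direction follows from being kept. The median log2 ratio was -0.20, with quartiles at -3.30 and 1.34. Differences were larger on the lower side, where 84 miRNAs were at least 16-fold lower against 14 that were at least 16-fold higher. Of the 54 kept miRNAs listed for the Dlk1-Dio3 region, described below, all except miR-380-3p are among the 84. In cardiotoxin, 48 of the 54 were under 10 CPM. Totals that leave out miR-21a-5p moved the median up by 0.92 and made the split 165 higher and 120 lower. Leaving out the 5 most abundant miRNAs gave 156 and 127, TMM factors 79 and 166, and DESeq2 size factors 82 and 163.

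The cell labels were checked against lineage miRNAs. The miR-199 and miR-214 miRNAs of mesenchymal cells, the lineage of FAPs, made up 11.8% of the denervated counts and 9.22% of the normal counts, but 0.0492% of the cardiotoxin counts, and miR-214-5p was at 0 there. The 10 kept leukocyte miRNAs summed to 24059 CPM in cardiotoxin, 733 CPM in denervated and 415 CPM in normal. All 10 were at least 2-fold higher in cardiotoxin, beside 31.2% of all 368. Of these, 5 reached 10 CPM in both libraries. The other 5 were under 10 CPM in denervated, so their direction follows from being kept, and miR-223-5p, miR-511-3p and miR-511-5p were at 0 there. The markers therefore go against the FAP label of the cardiotoxin library, and the part of leukocyte RNA in each result below was not tested. In libraries of bulk RNA, fewer cells of a type cannot be told apart from less of a miRNA per cell.

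**Figure D1:**
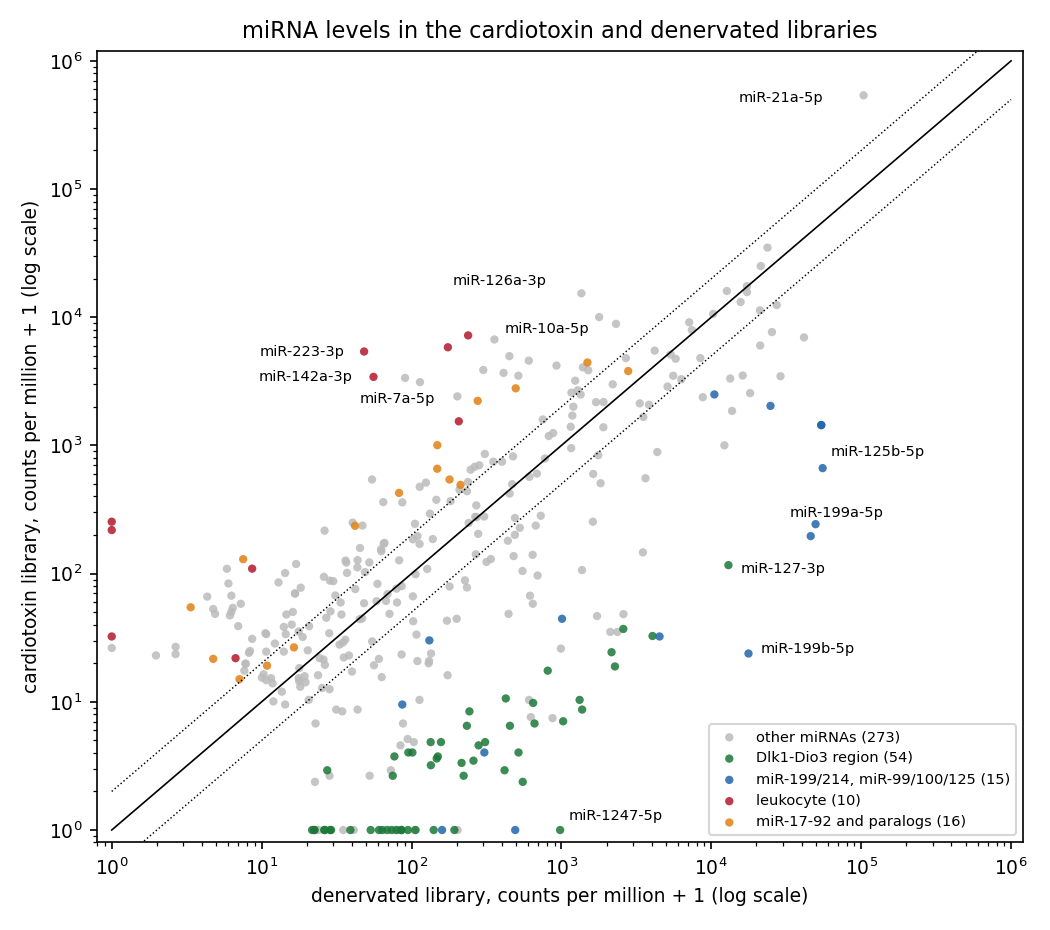
Each of the 368 points is a miRNA, plotted by its CPM + 1 in the denervated library (horizontal, log scale) and in the cardiotoxin library (vertical, log scale). The solid line marks equal levels and the dotted lines 2-fold. The 10 leukocyte miRNAs lie above the lines, and the 54 miRNAs listed for the Dlk1-Dio3 region lie below, 21 of them at 0 in cardiotoxin.

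miR-21a-5p, which is induced in many injured or inflamed tissues, headed the rows of both injured libraries. It held 53.9% of the counts in cardiotoxin (53.8% to 53.9%), 10.4% in denervated (10.35% to 10.40%) and 2.14% in normal. Its level of 538721 CPM in cardiotoxin was 5.19-fold that in denervated (5.18 to 5.21). The other arm of the hairpin, miR-21a-3p, was at 681 CPM in cardiotoxin, 263 CPM in denervated and 57.7 CPM in normal, which was 2.59-fold higher in cardiotoxin than in denervated (2.44 to 2.75). The Mir21a hairpin lies on chromosome 11 from 86584067 to 86584158 on the minus strand (GRCm38), within an exon of the host gene Vmp1. Apart from miR-21a-5p, cardiotoxin and denervated had miR-29a-3p in common among their 10 most abundant miRNAs.

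The cardiotoxin profile was much narrower. 1 miRNA made up over 50% of its counts, whereas 11 rows were needed in denervated and 12 in normal, or 10 and 11 with the equal rows described next taken as 1. After miR-21a-5p, the cardiotoxin library was led by miR-27b-3p, at 34967 CPM, followed by let-7i-5p with 25078 CPM and let-7g-5p with 17499 CPM, then by miR-30d-5p (16022 CPM), miR-23a-3p (15704 CPM) and the endothelial miR-126a-3p (15374 CPM). In the denervated library the next were miR-125b-5p (55358 CPM), miR-99a-5p (54157 CPM), miR-199b-3p (49642 CPM), miR-199a-5p (46083 CPM) and miR-26a-5p (41554 CPM). The highest of these 5 in cardiotoxin was miR-26a-5p, at 6964 CPM. A row named miR-100-5p carried the same counts as miR-99a-5p in every library. Its deposited sequence matched miR-99a-5p at every shared base and differed from miR-100-5p by A16U, counted from the 5′ end with the base of miR-100-5p first. The counts of both rows ended in 0.5 in every library and their sums were whole, so each row may hold a share of one pool of reads, which would make the printed miR-99a-5p level a part of the pool. Summed, the rows were at 2882 CPM in cardiotoxin, 108314 CPM in denervated and 141226 CPM in normal, which in denervated is above the 103762 CPM of miR-21a-5p. The ratio between libraries is the same either way, and no level is given for miR-100 itself.

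Among the leukocyte miRNAs, those of the myeloid lineage were furthest apart. miR-223-3p, which restrains neutrophil activation and granulocyte growth, was at 5406 CPM in cardiotoxin, 47.3 CPM in denervated and 7.38 CPM in normal. That was 114-fold higher in cardiotoxin than in denervated (103 to 128). Its other arm, miR-223-5p, was at 253 CPM in cardiotoxin and 0 in the other libraries, at least 607-fold higher. miR-511-3p and miR-511-5p, made from an intron of the macrophage mannose receptor gene Mrc1, were at 218 CPM and 31.4 CPM in cardiotoxin and 0 in denervated, at least 522-fold and 75.2-fold higher.

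The miRNAs found across leukocytes or in lymphocytes were less far apart. miR-142a-3p was at 3426 CPM in cardiotoxin against 54.8 CPM in denervated, and miR-142a-5p at 5833 CPM against 174 CPM. miR-342-3p, made from an intron of Evl, was at 7220 CPM in cardiotoxin, 238 CPM in denervated and 234 CPM in normal. miR-150-5p, a miRNA of mature lymphocytes, showed the smallest fold of the abundant ones, at 1542 CPM against 206 CPM, or 7.49-fold (7.08 to 7.94). Its other arm, miR-150-3p, was at 20.9 CPM against 5.70 CPM, or 3.67-fold (2.48 to 5.50).

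All 5 kept miRNAs of the miR-199 and miR-214 genes were lower in cardiotoxin, beside 40.2% of all 368. Their median log2 ratio was -7.88, against -0.20 over all 368. miR-199b-5p was at 22.8 CPM in cardiotoxin, 17711 CPM in denervated and 12015 CPM in normal, which was 776-fold lower in cardiotoxin than in denervated (626 to 974). miR-199a-5p was at 195 CPM against 46083 CPM, or 236-fold lower (219 to 254). miR-214-3p was at 31.4 CPM against 4517 CPM, or 144-fold lower (120 to 175). For all 5 the denervated level was the highest of the 3 libraries. Mir214 and Mir199a-2 lie on chromosome 1 from 162223368 to 162223477 and from 162217814 to 162217923 on the plus strand (GRCm38), within exons of the non-coding gene Dnm3os.

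Some miRNAs outside that list were also far lower. miR-455-3p and miR-455-5p, made from a collagen gene intron, were at 34.1 CPM against 2363 CPM and 6.60 CPM against 624 CPM, or 69.3-fold (58.1 to 83.4) and 94.6-fold lower (63.5 to 148). miR-218-5p, made from introns of the Slit genes, was at 0 against 202 CPM, at least 245-fold lower. miR-224-5p and miR-452-5p, a gene pair on chromosome X, were at 25.03 CPM against 991 CPM and 0 against 40.2 CPM, or 39.6-fold (32.2 to 49.3) and at least 48.7-fold lower. miR-676-3p was at 45.7 CPM against 1728 CPM, or 37.9-fold lower (32.5 to 44.4). miR-455 and miR-676 were chosen after their values were seen, and miR-218-5p by its place among the 15 lowest ratios.

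The imprinted Dlk1-Dio3 region on chromosome 12 codes for one of the largest sets of miRNAs in the mouse, expressed from the maternal chromosome. Of 84 names in the table that were listed for the region, 54 were kept and 30 were removed by the filter. The lists leave out miR-370-3p, also on chromosome 12, which was kept at 3.85 CPM in cardiotoxin against 103 CPM in denervated. The log2 ratios of the kept ones ran from -9.94 to -3.23, but 48 of the 54 were under 10 CPM in cardiotoxin and were kept through their denervated level, so that most of these directions follow from the filter. The 6 that were at 10 CPM or more in both libraries, miR-127-3p, miR-379-5p, miR-411-5p, miR-434-3p, miR-541-5p and miR-300-3p, had log2 ratios from -6.96 to -5.53. Together the 54 held 0.0354% of the cardiotoxin counts, 3.74% of the denervated counts and 4.32% of the normal counts. The proximal cluster around the antisense transcript of Rtl1 had a median of -6.21 over 14 members, and the distal cluster within Mirg had a median of -5.92 over 39. With members at 0 set to their bound these medians were -6.38 and -5.99.

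miR-127-3p, the most abundant of the region, was at 116 CPM in cardiotoxin, 13016 CPM in denervated and 18290 CPM in normal. It was 113-fold lower in cardiotoxin than in denervated (102 to 124). Its hairpin lies on chromosome 12 from 109592846 to 109592915 on the plus strand (GRCm38), antisense to Rtl1. In the distal cluster miR-379-5p was at 31.6 CPM against 4055 CPM, or 128-fold lower (107 to 155), and miR-541-5p at 36.0 CPM against 2588 CPM, or 71.8-fold lower (60.5 to 86.0). miR-380-3p, at 1.93 CPM against 26.4 CPM, was the least far apart at 13.7-fold (6.53 to 34.6). For low members such as this the cardiotoxin value rests on a few counts.

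miR-1247-5p, which lies next to Dio3, had the lowest log2 ratio of all 368, at -9.94. It was at 0 in cardiotoxin, 980 CPM in denervated and 303 CPM in normal, at least 1188-fold lower in cardiotoxin than in denervated. Its hairpin lies on chromosome 12 from 110278048 to 110278129 on the minus strand (GRCm38), within an exon of Dio3os. The strand is opposite to that of the other Dlk1-Dio3 hairpins for which coordinates are given here.

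The miR-99, miR-100 and miR-125 family is abundant in mesenchymal cells, and its members lie in mixed clusters with let-7 genes. All 9 kept members other than the miR-100-5p row were lower in cardiotoxin, beside 40.2% of all 368. Of these, miR-125a-3p, miR-125b-1-3p and miR-99a-3p were under 10 CPM in cardiotoxin and were kept through their denervated level. The median log2 ratio of the 9 was -4.51. Together the 9 held 0.672% of the counts in cardiotoxin and 14.7% in denervated, or 0.816% and 20.1% with the miR-100-5p row. The size of the difference followed the paralog. miR-125b-5p was 83.3-fold lower (80.0 to 86.8) and miR-99a-5p 37.6-fold lower (36.6 to 38.6), whereas miR-125a-5p was 12.2-fold lower (11.9 to 12.5) and miR-99b-5p 4.20-fold lower (4.11 to 4.29).

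The let-7 family, which restrains growth and is high in differentiated cells, was split. Of 17 kept arms, 1 was higher, 9 were lower and 7 lay within 2-fold, with a median of -1.54. Over all 368, 31.2% were higher and 40.2% lower. Without the summed let-7a-5p value described next, 8 of 16 arms were lower and the median was -1.24. let-7i-5p was at 25078 CPM in cardiotoxin and 21409 CPM in denervated, and let-7g-5p at 17499 CPM and 17296 CPM. These were 1.17-fold and 1.01-fold higher, and both turned slightly lower with TMM factors, DESeq2 size factors and the authors' normalized values. let-7b-5p was at 1858 CPM against 13758 CPM, or 7.41-fold lower (7.22 to 7.59), and let-7e-5p at 554 CPM against 3639 CPM, or 6.57-fold lower (6.28 to 6.88). miR-98-5p, which has the let-7 seed, was the higher one at 746 CPM against 351 CPM. The 9 miRNAs with the let-7 seed summed to 71715 CPM in cardiotoxin and 115857 CPM in denervated, with both equal rows described next included.

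Summing equal names mixed the sequences of let-7a-5p and let-7c-5p in the let-7a-5p value. The let-7a-5p value sums 2 rows, 1 of which carries the let-7c-5p sequence and the same counts as the let-7c-5p row. The row with the let-7a-5p sequence alone was at 2511 CPM in cardiotoxin and 4996 CPM in denervated, a log2 ratio of -0.99, while the let-7c-5p row was at 3510 CPM and 16205 CPM, a log2 ratio of -2.21. The summed let-7a-5p value had a log2 ratio of -1.82.

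The miRNAs of the Hox clusters, which carry the positional identity of stromal cells, went in different directions. miR-10a-5p, from between Hoxb genes, was at 6712 CPM in cardiotoxin, 357 CPM in denervated and 906 CPM in normal, and was 18.8-fold higher in cardiotoxin than in denervated (18.1 to 19.6). miR-10b-5p, from the Hoxd cluster, was at 3498 CPM against 5569 CPM, or 1.59-fold lower (1.56 to 1.62), and turned higher when miR-21a-5p or the 5 most abundant miRNAs were left out of the totals. These miRNAs have the same seed and differ by U12A alone, counted from the 5′ end with the base of miR-10a-5p first. The other arms went the same way, with miR-10a-3p at 25.9 CPM against 1.67 CPM and miR-10b-3p at 14.9 CPM against 18.4 CPM. In contrast, miR-196a-5p was at 6.46 CPM against 872 CPM, miR-196b-5p at 34.1 CPM against 2120 CPM and miR-615-3p at 9.35 CPM against 607 CPM. These were 135-fold (88.7 to 206), 62.2-fold (52.1 to 74.8) and 65.0-fold lower (46.4 to 93.9) in cardiotoxin, and were chosen after their values were seen.

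**Figure D2:**
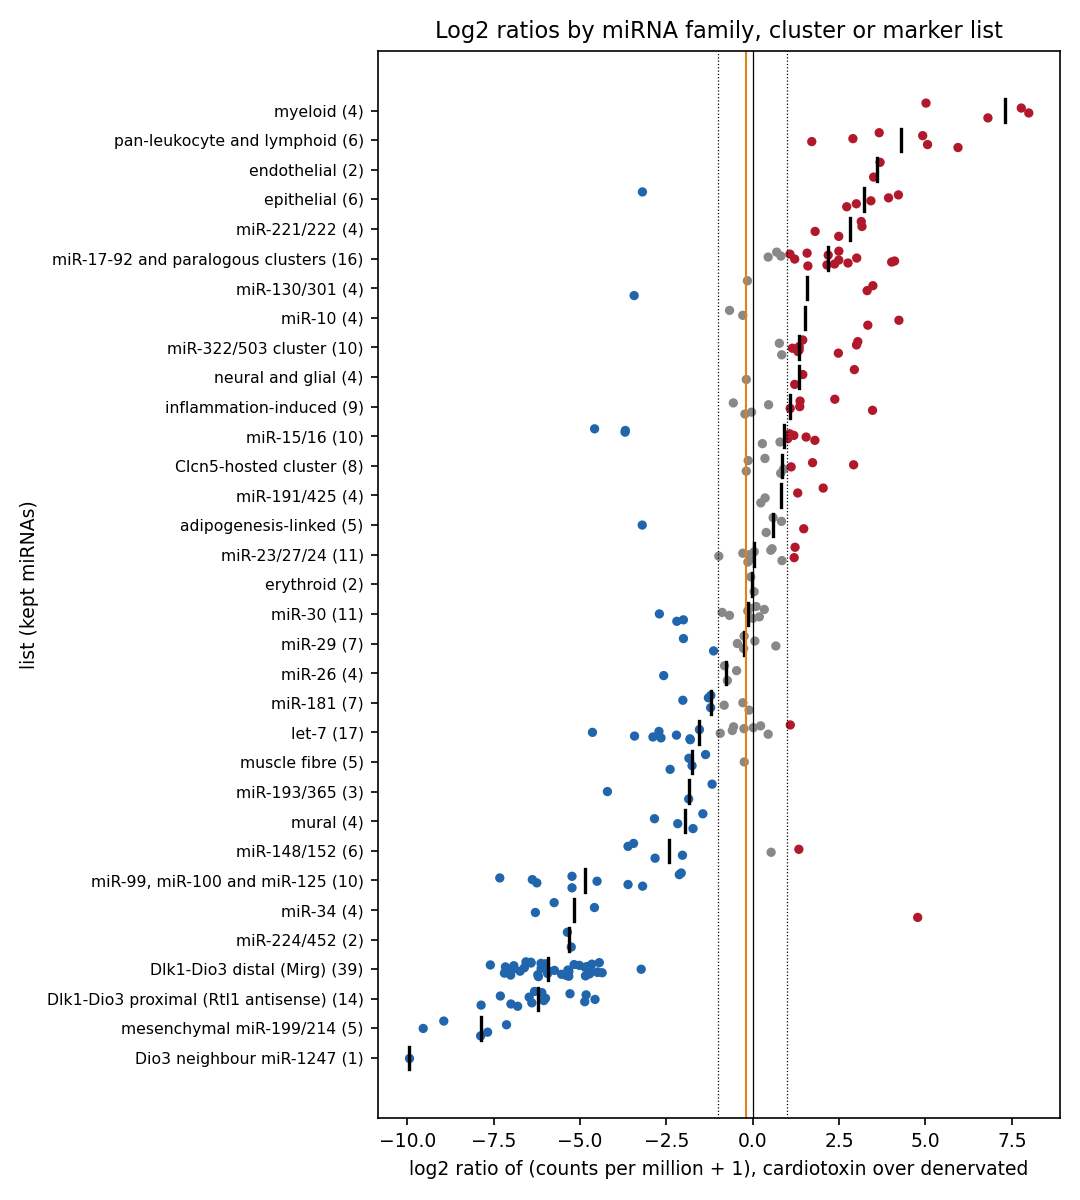
Each point is the log2 ratio of (CPM + 1), cardiotoxin over denervated, of 1 miRNA (horizontal), by list (vertical, with the number of kept members); red points are at least 2-fold higher, blue points at least 2-fold lower and gray points in between. Black bars are list medians, dotted lines mark 2-fold and the orange line marks the median of all 368 at -0.20; the myeloid list lies furthest to the right, and miR-1247 and the list of miR-199 and miR-214 furthest to the left.

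Lineage miRNAs of other cells that muscle holds were not all higher in cardiotoxin. Both arms of the endothelial miR-126a were higher, with miR-126a-3p at 15374 CPM in cardiotoxin, 1359 CPM in denervated and 4251 CPM in normal, or 11.3-fold (11.1 to 11.6). All 4 kept arms of miR-143 and miR-145a, miRNAs of smooth muscle cells and pericytes, were lower, beside 40.2% of all 368. Their median was -1.95. miR-143-3p was at 7665 CPM against 25395 CPM, or 3.31-fold lower (3.27 to 3.36), and 2 of the 4 were 2-fold lower once the totals left out miR-21a-5p.

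Muscle fibre miRNAs were lower in cardiotoxin in 4 of 5 kept members, beside 40.2% of all 368. miR-1a-3p was at 506 CPM in cardiotoxin, 1825 CPM in denervated and 681 CPM in normal, or 3.60-fold lower in cardiotoxin than in denervated (3.43 to 3.78). miR-133a-3p was at 104 CPM against 549 CPM, or 5.29-fold lower (4.75 to 5.89). miR-206-3p, which is induced in regenerating and denervated fibres, was at 282 CPM in cardiotoxin, 728 CPM in denervated and 28.9 CPM in normal, so both injured libraries lay above normal. It was 2.58-fold lower in cardiotoxin than in denervated (2.41 to 2.76). When the totals left out miR-21a-5p, 1 of the 5 was 2-fold lower.

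The epithelial list divided by gene, but only miR-182-5p and miR-203-3p reached 10 CPM in both libraries. miR-200a-3p, miR-200b-3p and miR-200c-3p, which keep cells epithelial by repressing Zeb factors, were at 66.3, 65.2 and 108 CPM in cardiotoxin against 5.28, 3.34 and 4.87 CPM in denervated. miR-182-5p and miR-183-5p were higher too, at 84.4 CPM against 11.96 CPM and 49.2 CPM against 5.28 CPM. For the miR-200 arms and miR-183-5p, all under 10 CPM in denervated, the direction follows from being kept. miR-203-3p, a skin miRNA, was at 47.6 CPM against 443 CPM, or 9.31-fold lower in cardiotoxin (7.99 to 10.9). The erythroid miR-451a and miR-486a-5p were nearly level, at 17.3 CPM against 16.8 CPM and 75.4 CPM against 78.4 CPM. Their intervals held 1, and each changed sides under at least 1 other scaling. Of the neural and glial list, miR-338-5p was at 46.2 CPM against 5.14 CPM, miR-338-3p at 37.4 CPM against 13.1 CPM and miR-128-3p at 244 CPM against 104 CPM, while miR-219a-5p was at 11.0 CPM against 12.7 CPM. Between 1 and 3 of these 4 were 2-fold higher over the scalings tried. Of the 4, miR-338-5p was under 10 CPM in denervated and was kept through its cardiotoxin level.

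miRNAs that favour the cell cycle were mostly higher in cardiotoxin. Of 16 kept miRNAs of the miR-17-92 cluster and its paralogs, 13 were higher and 0 were lower, beside 31.2% and 40.2% of all 368. The median was 2.17, and 11 to 16 were higher over the scalings tried. miR-20a-5p was at 2227 CPM in cardiotoxin, 276 CPM in denervated and 157 CPM in normal, or 8.08-fold higher in cardiotoxin than in denervated (7.69 to 8.49). miR-18a-5p was at 129 CPM against 6.53 CPM, or 19.7-fold higher (14.6 to 27.2), and miR-18a-3p was 22.7-fold higher (13.8 to 39.7). Both arms of miR-18a, miR-363-3p and miR-92a-1-5p were under 10 CPM in denervated, so their direction follows from being kept. miR-92a-3p, the most abundant of the list, was at 4438 CPM against 1490.5 CPM, or 2.98-fold higher (2.91 to 3.05). miR-25-3p was at 3804 CPM against 2790 CPM, 1.36-fold, and turned lower with TMM factors and level with DESeq2 size factors. miR-17, miR-18a and miR-20a are processed from the host transcript Mir17hg on chromosome 14, and miR-93, miR-106b and miR-25 lie within Mcm7 on chromosome 5.

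miR-221 and miR-222, which repress the cell cycle inhibitor p27, were higher in 4 of 4 kept arms, beside 31.2% of all 368. Of these arms, miR-222-5p was at 1.67 CPM in denervated and was kept through its cardiotoxin level. miR-221-3p was at 10034 CPM in cardiotoxin against 1785 CPM, or 5.62-fold (5.51 to 5.73), and miR-222-3p at 3682 CPM against 410 CPM, or 8.97-fold (8.62 to 9.34). The cluster on chromosome X that holds miR-503, miR-322 and miR-351 slows the cell cycle in differentiating myoblasts. It was higher in 8 of 10 kept members, beside 31.2% of all 368, with a median of 1.34. The count of higher members was 3 with TMM factors and 10 with miR-21a-5p left out. Among the 10, the miR-450b-3p and miR-450a-1-3p rows had equal counts in every library, so they may hold 1 pool of reads. miR-503-5p was at 216 CPM in cardiotoxin, 25.3 CPM in denervated and 81.2 CPM in normal, whereas miR-351-5p was at 700 CPM, 282 CPM and 1235 CPM. The normal level was the highest of the 3 in 7 of the 10 members, miR-351-5p and both of the equal rows among them.

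The miR-15/16 family, which opposes cyclins and Bcl2, divided by gene pair. miR-16-5p was at 2696 CPM against 1285 CPM, or 2.10-fold higher in cardiotoxin (2.04 to 2.16), and miR-15b-5p at 367 CPM against 181 CPM, or 2.02-fold higher (1.87 to 2.19). Neither stayed 2-fold higher with TMM factors. miR-497a-5p was at 145 CPM against 3497 CPM and miR-195a-5p at 106 CPM against 1372 CPM, or 24.04-fold (22.1 to 26.2) and 13.0-fold lower (11.7 to 14.4). The miR-497 and miR-195a genes are neighbours on chromosome 11, and the Mir15b and Mir16-2 genes lie together in an intron of Smc4 on chromosome 3.

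The p53-inducible miR-34 family showed the same kind of division. miR-34a-5p was at 3117 CPM in cardiotoxin, 113 CPM in denervated and 130 CPM in normal, or 27.6-fold higher in cardiotoxin than in denervated (25.7 to 29.7). miR-34c-5p was at 47.3 CPM, 2595 CPM and 708 CPM, or 54.9-fold lower (47.2 to 64.1). miR-34b-3p was at 0 in cardiotoxin, 77.3 CPM in denervated and 23.5 CPM in normal, at least 93.7-fold lower in cardiotoxin than in denervated. miR-34b and miR-34c are made from one transcript, and miR-34a from another gene.

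Of 9 inflammation-induced miRNAs, 5 were higher in cardiotoxin and 0 were lower, beside 31.2% and 40.2% of all 368. With TMM factors 2 were higher and 1 lower. miR-146a-5p, a brake on NF-kB signalling, was at 4976 CPM in cardiotoxin, 449 CPM in denervated and 584 CPM in normal, or 11.1-fold higher in cardiotoxin than in denervated (10.7 to 11.5). Its paralog miR-146b-5p was at 1593 CPM, 750 CPM and 320 CPM, or 2.12-fold (2.04 to 2.20), so that both injured libraries lay above normal. miR-155-5p, induced on activation of macrophages and lymphocytes, was at 111 CPM, 42.5 CPM and 18.8 CPM, or 2.61-fold (2.24 to 3.03). miR-132-3p, from a CREB-responsive gene, was at 108 CPM against 126 CPM, and all 4 arms of miR-132 and miR-212 lay within 2-fold.

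The miR-29 family, which represses collagen genes, had a median of -0.27, which turned positive when miR-21a-5p or the 5 most abundant miRNAs were left out of the totals. miR-29a-3p was at 12459 CPM in cardiotoxin, 27323 CPM in denervated and 17463 CPM in normal, or 2.19-fold lower in cardiotoxin than in denervated (2.17 to 2.22). miR-29c-3p was at 41.9 CPM against 171 CPM, or 4.09-fold lower (3.46 to 4.89), while miR-29b-3p was at 60.0 CPM against 57.4 CPM, an order that other scalings turned. miR-26a-5p, also linked to fibrosis, was at 6964 CPM against 41554 CPM, or 5.97-fold lower (5.89 to 6.04), and its paralog miR-26b-5p at 4800 CPM against 8451 CPM, which turned higher when the totals left out miR-21a-5p. miR-101a-3p was at 3466 CPM against 28972 CPM, or 8.36-fold lower (8.21 to 8.51), and was named as one of the 10 most abundant in denervated.

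The miR-30 family, which favours adipocyte formation, had 3 of 11 arms lower, beside 40.2% of all 368. Its median of -0.14 was above 0 when miR-21a-5p or the 5 most abundant miRNAs were left out. In this family miR-30d-5p, miR-30e-5p and miR-30b-5p were 1.26-fold, 1.07-fold and 1.14-fold higher in cardiotoxin. All turned lower with TMM factors and DESeq2 size factors. miR-30a-5p was at 3328 CPM against 13381 CPM, or 4.02-fold lower (3.95 to 4.10), and miR-30c-2-3p, from the neighbouring gene on chromosome 1, was 6.80-fold lower (5.32 to 8.81). The miR-23, miR-27 and miR-24 clusters had 9 of 11 arms within 2-fold and a median of 0.05, which was below 0 with TMM factors, DESeq2 size factors and the authors' normalized values. miR-27b-3p was at 34967 CPM in cardiotoxin, 23709 CPM in denervated and 48711 CPM in normal.

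Of the 5 kept adipogenesis-linked miRNAs, 1 was higher, 1 was lower and 3 lay within 2-fold, beside 31.2% higher and 40.2% lower over all 368. Over the scalings tried, 0 to 4 were higher. The lower one, miR-204-5p, favours adipocyte over bone formation by repressing Runx2. It was at 66.3 CPM in cardiotoxin, 617 CPM in denervated and 308 CPM in normal. It was 9.30-fold lower in cardiotoxin than in denervated (8.17 to 10.6). miR-107-3p was at 857 CPM against 307 CPM, or 2.79-fold higher (2.64 to 2.94), and its near twin miR-103-3p at 5491 CPM against 4192 CPM, 1.31-fold, the latter turning lower with TMM factors, DESeq2 size factors and the authors' normalized values. miR-378a-3p, from an intron of Ppargc1b, was at 4797 CPM against 2692 CPM, or 1.78-fold higher (1.75 to 1.82). From other lists, miR-130a-3p, which represses Pparg, was at 15.1 CPM against 173 CPM, or 11.4-fold lower (8.73 to 15.3). Its paralog miR-130b-3p, with the same seed, went the other way at 47.6 CPM against 3.89 CPM, or 12.2-fold higher (8.17 to 18.9). miR-193b-3p, which favours brown adipocytes, was at 3.58 CPM against 83.4 CPM, or 23.3-fold lower (13.5 to 44.1). miR-130b-3p was kept through its cardiotoxin level and miR-193b-3p through its denervated level.

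miR-148a-3p and miR-152-3p, which share a seed, were 7.09-fold (6.95 to 7.25) and 12.2-fold lower (11.8 to 12.6) in cardiotoxin, at 2560 CPM against 18160 CPM and 1001 CPM against 12230 CPM. miR-148b-3p, with the same seed, was at 1710 CPM against 1182 CPM, 1.45-fold (1.40 to 1.495) higher, and below 2-fold. The miR-181 family was lower in 4 of 7 kept arms, beside 40.2% of all 368, with a median of -1.21. Over the scalings tried it was lower in 1 to 5. miR-181a-5p was at 2880 CPM against 5106 CPM, which turned higher when the totals left out miR-21a-5p. In the cluster within Clcn5 on chromosome X, miR-501-3p stood out at 4587 CPM against 605 CPM, or 7.58-fold higher (7.33 to 7.84), while miR-362-3p was at 602 CPM against 685 CPM and miR-532-5p at 2175 CPM against 1702 CPM. miR-425-5p was at 512 CPM against 124 CPM, or 4.14-fold higher (3.82 to 4.49), and its neighbour miR-191-5p at 9133 CPM against 7124 CPM. The miR-191-5p and miR-532-5p ratios were below 0 on the log2 scale with TMM factors, DESeq2 size factors and the authors' normalized values.

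Some of the highest ratios belonged to none of these groups. miR-7a-5p, a miRNA of neuroendocrine cells that represses growth factor receptors, was at 3363 CPM in cardiotoxin, 89.6 CPM in denervated and 91.2 CPM in normal, or 37.5-fold higher in cardiotoxin than in denervated (34.7 to 40.7). miR-339-5p was at 2414 CPM, 201 CPM and 195 CPM, or 11.99-fold (11.3 to 12.7), and miR-139-5p at 541 CPM, 53.5 CPM and 83.9 CPM, or 10.1-fold (9.07 to 11.3). Denervated and normal were within 2-fold of each other in each. miR-340-5p, miR-652-3p and miR-140-3p were at 3497, 4196 and 8879 CPM in cardiotoxin against 515, 926 and 2314 CPM in denervated. At the other end of the scale, 7 of the 8 miRNAs nearest to a ratio of 1 among the 200 with the highest mean were higher by 1.10-fold or less. They were let-7g-5p, miR-22-5p, miR-1839-5p, miR-27a-3p, miR-28a-3p, miR-674-5p and miR-361-5p, and all 7 turned lower with TMM factors, DESeq2 size factors and the authors' normalized values.

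miRNAs with the same seed were then compared among themselves, over the 12 seeds that at least 3 kept miRNAs in RefSeq carried, or 11 without the miR-100-5p row. The widest span was that of the seed of miR-125b-5p, miR-125a-5p and miR-351-5p, whose log2 ratios of -6.38, -3.61 and 1.31 covered 7.69. The seed of the miR-15/16 family followed with a span of 7.06, from miR-497a-5p at -4.58 to miR-322-5p at 2.48. In the group after these, miR-130a-3p was at -3.43, miR-301a-3p at -0.15 and miR-130b-3p at 3.31. The miR-130 pair differs by U11A and A13G, counted from the 5′ end with the base of miR-130a-3p first, and both changes lie outside the seed.

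Summed over its members, a seed could differ less than its members did. The 6 miRNAs with the miR-15/16 seed summed to 4495 CPM in cardiotoxin and 6873 CPM in denervated, a 1.53-fold lower sum, although single members ran from 24.04-fold lower to 5.65-fold higher. The miR-125 seed summed to 3399 CPM against 80475 CPM, or 23.7-fold lower. The narrowest span, 0.86, was that of miR-17-5p, miR-20a-5p, miR-93-5p and miR-106b-5p, which summed to 6677 CPM against 1065 CPM, or 6.27-fold higher. These 4 come from 2 genomic clusters on different chromosomes.

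**Figure D3:**
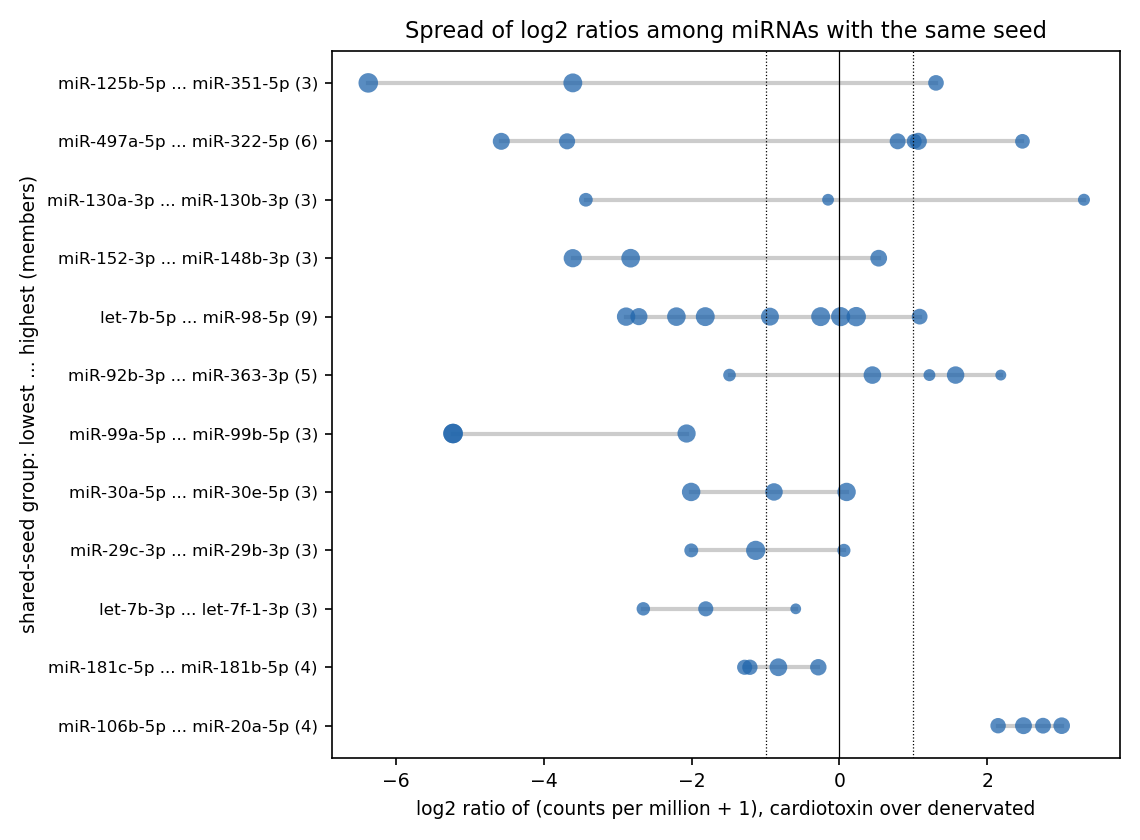
Log2 ratios of (CPM + 1), cardiotoxin over denervated (horizontal), of the kept miRNAs in each of 12 groups with a shared seed (vertical, named by their lowest and highest member); point area grows with the mean CPM and dotted lines mark 2-fold. The miR-125b-5p group spans 7.69, and the miR-17-5p group at the bottom spans 0.86 and lies wholly above 2-fold.

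Neighbours in the genome were compared next. Hairpins in RefSeq on one strand with at most 10 kb between them gave 25 clusters in which at least 2 hairpins had a kept miRNA. miRNAs also made from a gene outside the cluster were left out, as were the let-7a-5p and miR-100-5p rows. In 6 clusters every miRNA counted was at least 2-fold lower and in 5 every one was higher. The span of log2 ratios within a cluster had a median of 1.80 and reached 3.96 in the distal Dlk1-Dio3 cluster. In 1 of the 25, let-7f-2-3p at 3.02-fold lower and miR-98-5p at 2.13-fold higher were 2-fold apart in opposite directions, and in none with TMM factors, DESeq2 size factors or miR-21a-5p left out. The number of clusters with all members lower was 6 under each of these, whereas that with all higher was 3, 3 and 8. The lower ones were the proximal and distal Dlk1-Dio3 clusters, miR-224 with miR-452, miR-99a with let-7c-1, miR-497 with miR-195a, and let-7e with miR-125a. The higher ones were miR-15b with miR-16-2, miR-221 with miR-222, the miR-17-92 cluster, miR-182 with miR-183, and miR-200a with miR-200b. Each of the lower clusters held members under 10 CPM in cardiotoxin. All the higher ones except miR-221 with miR-222 held members under 10 CPM in denervated. For such members the direction follows from being kept. Neighbouring hairpins can share a primary transcript, and they are not independent measurements.

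Arms of one hairpin come from one precursor, so their ratios were set side by side for the 103 hairpins with both arms kept. In 87 the ratios had the same sign, and in 63 they lay within 1 of each other on the log2 scale. Where both arms were under 10 CPM in the same library, the shared sign follows from being kept. This holds for miR-485 and miR-409 in cardiotoxin and miR-18a in denervated, among others. The median difference was 0.85. Only miR-3068 had arms that were 2-fold apart in opposite directions, with miR-3068-5p at 129 CPM against 337 CPM, or 2.61-fold lower (2.37 to 2.89), and miR-3068-3p at 102 CPM against 48.0 CPM, or 2.12-fold higher (1.83 to 2.46). No hairpin had such arms with TMM factors, DESeq2 size factors or totals without miR-21a-5p. Among hairpins with both arms at a mean of at least 50 CPM, miR-485 had the largest gap of 2.58, with miR-485-5p at 0 against 192 CPM and miR-485-3p at 3.85 CPM against 156 CPM. miR-409, with miR-409-5p at 1.93 CPM against 417 CPM and miR-409-3p at 7.43 CPM against 242 CPM, came next after miR-3068. In both, the cardiotoxin values rest on few counts. miR-335-5p was at 57.2 CPM against 644 CPM and miR-335-3p at 77.0 CPM against 233 CPM, so the more abundant arm in denervated was the less abundant one in cardiotoxin.

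**Figure D4:**
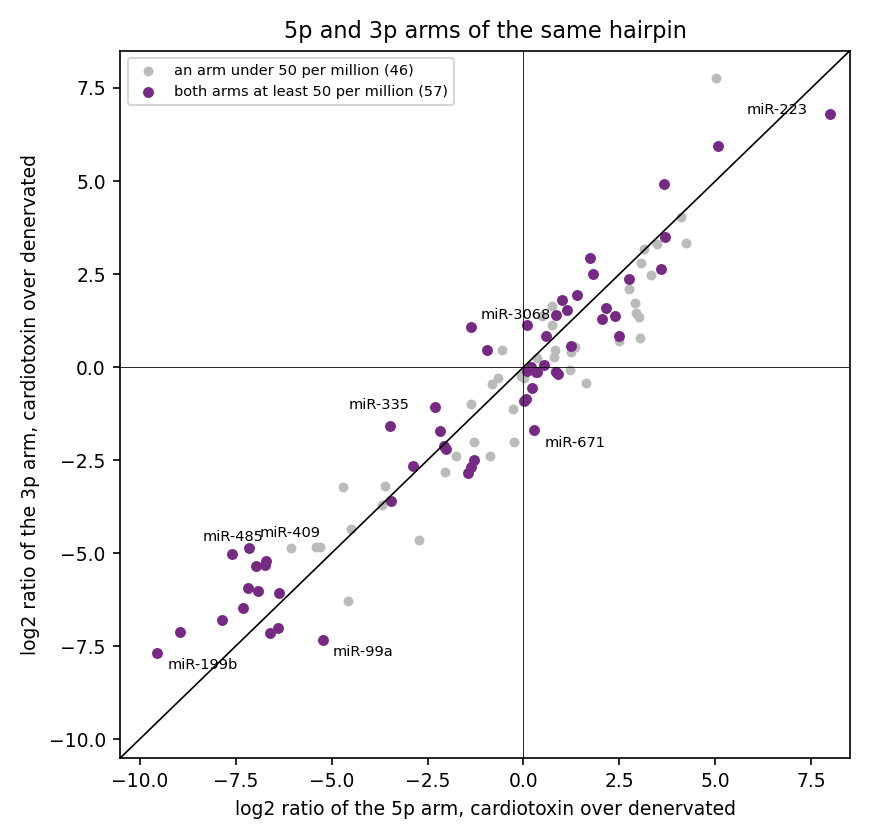
Log2 ratio of the 5p arm (horizontal) against that of the 3p arm (vertical), cardiotoxin over denervated, for 103 hairpins; purple points have both arms at a mean of at least 50 CPM and the line marks equal ratios. Most points follow the line, and miR-3068 lies in the quadrant where the 5p arm is lower and the 3p arm higher.

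For 16 miRNAs the normal level lay in between, at least 2-fold from each. The ratios against normal share that library and are given here as values. In 11 of these, cardiotoxin was highest. They were miR-10a-5p, both arms of miR-126a, miR-503-5p, miR-326-3p, miR-182-5p, miR-183-5p, miR-200b-3p, miR-200c-3p, miR-338-5p and miR-184-3p. In 5, denervated was highest, namely miR-1247-5p, miR-34c-5p, both arms of miR-34b and miR-204-5p. miR-126a-5p, for example, had log2 ratios against normal of 1.75 in cardiotoxin and -1.93 in denervated, and miR-34c-5p had -3.88 and 1.87. The 16 miRNAs were chosen after their values were seen, and the count would change with another scaling of the cardiotoxin library. Of them, miR-183-5p, miR-200b-3p, miR-200c-3p, miR-338-5p and miR-184-3p were under 10 CPM in denervated. miR-1247-5p and both arms of miR-34b were at 0 in cardiotoxin. For all of these the direction between cardiotoxin and denervated follows from being kept.

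**Figure D5:**
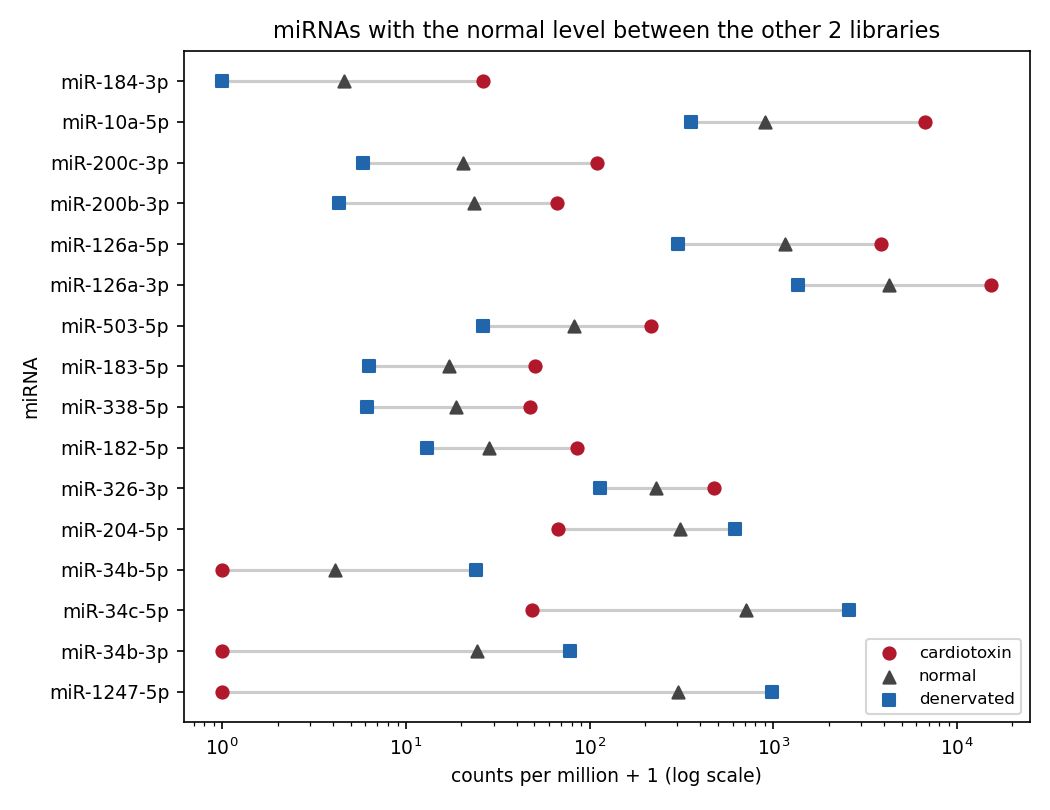
CPM + 1 (horizontal, log scale) in the cardiotoxin (red circles), normal (black triangles) and denervated (blue squares) libraries of the 16 miRNAs whose normal level lay between the others by at least 2-fold on each side. In 11 the red circle is highest and in 5 the blue square, among them miR-1247-5p and both arms of miR-34b, which are at 0 in cardiotoxin.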

How the data were processed

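For each miRNA row the deposited table holds 1 estimated count a library, called raw per the file headers, and a normalized signal that the authors deposited beside it, which is those counts multiplied by a constant (1.12 in cardiotoxin, 0.746 in denervated). A chi-square p-value that the authors deposited for each row was not used. The sources used here name no aligner, miRBase release or genome build. StringTie appears in the submitters' processing notes without a role. Between 87.9% and 88.4% of the estimated counts were whole (tolerance 1e-06). Another 3 lines, blank in the copy used, were not analysed here.

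Mature mouse names were shortened to the part before any row suffix, equal names were summed, and counts were divided by the column total over all rows. Ratios are log2 of CPM plus 1, filtered at a mean of 10 CPM, and called at 2-fold. With 1 library per condition there is no test and no p-value. Intervals are exact conditional binomial ones for folds and Clopper-Pearson ones for shares, on counts rounded to whole numbers, and they cover only counting error, because PCR reads that carry no molecular identifier are not independent molecules. The interval script was tested on simulated data. TMM factors (edgeR 4.0.16) and DESeq2 1.42.0 size factors were alternatives, and other steps used Python 3.11.15, pandas 2.3.3 and SciPy 1.17.1. The members and 33 lists were chosen with earlier results of these data known. The text names, by rule, the 10 most abundant miRNAs of each library, the 15 highest and lowest ratios and the 8 nearest to 0 among the 200 with the highest mean, up to 4 members per list, and the arms and seed groups furthest apart. Other miRNAs named, such as further list members and cluster neighbours, were chosen after their values were seen. Host genes are from GENCODE M21 (GRCm38).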

Additional observations from a re-analysis of the deposited data

Results flagged for a closer look

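Rows other than mature mouse names, which enter the totals but no comparison above, held more of the cardiotoxin counts than of the normal counts beyond counting error. Rows named after other species held 1.21% in cardiotoxin, 0.697% in denervated and 0.689% in normal. Rows of mouse hairpin names held 0.36%, 0.22% and 0.256%, and predicted candidates 0.0555%, 0.0249% and 0.0248%. With 1 library each, no difference between conditions was tested.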

How the results depend on the processing

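The counts of 115 higher and 148 lower became 201 and 233 with no filter on low values and 60 and 84 at a mean of at least 100 CPM, which test 635 and 199 miRNAs in place of 368. The median of the epithelial list turned from 3.21 to -3.19 at a mean of at least 100 CPM, where miR-203-3p alone is left. The share of counts held by miR-21a-5p was 54.8% in cardiotoxin and 10.5% in denervated when taken over mature mouse rows only, an alternative chosen after seeing the data. Under the other alternatives both counts stayed within 1.5 times, from 79 to 165 higher and from 120 to 166 lower. None of the miRNAs named by rule that were 2-fold apart changed sign under any of the 6 other scalings or 2 other pseudocounts. No replicate could be left out, and no paired analysis was possible because each condition has 1 library. Depth limits the miRNAs at a few counts in cardiotoxin, where 29 of the 368 were at 0.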
